A study of Solanum lycopersicum with 2 samples.

Results

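Of 22315 transcribed loci measured in tomato (Solanum lycopersicum) leaf, 871 carried 2 or more annotated genes each, and these joined loci are described here. They were chosen from the annotation column alone, as every locus whose reference entry lists at least 2 genes, whatever its level. Another 16932 loci carried 1 gene and 4512 carried none, so joined loci made up 4.89% of the 17803 gene loci. Because each of them lists several genes, they held 1895 of the 18827 gene entries (10.1%). The samples were young primary leaves of seedlings, 1 library of wild-type plants (CK-1) and 1 of transgenic plants overexpressing SlRBZ (OV-5-1). The promoter, any pooling of plants and their age in days are not stated, and the labels do not say what SlRBZ encodes. By its title, the study links the overexpression with leaf yellowing and dwarfing, and with the pathways of chlorophyll, carotenoids and gibberellin. The design text speaks of duplicates, but with 1 library per genotype analysed here no difference has a replicate check, no p-value was computed, and every comparison below is between 2 libraries. In whole leaves, fewer cells of a type and less RNA per cell cannot be told apart.

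Transcript assembly puts overlapping transcripts on 1 strand into 1 locus, so a locus can come to list several annotated genes wherever an assembled transcript runs across more than 1 of them. In plants this is known from neighbouring genes with overlapping ends, from read-through past a polyadenylation site, from tandem duplicates and from gene models that divide 1 gene. In the plastid it is the rule, since plastid genes are arranged in operons and copied into polycistronic transcripts. A joined locus has a single expression value, here in FPKM, a fragment count corrected for transcript length and library size, which cannot be divided among its genes.

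Joined loci were mostly pairs. Of the 871, 773 (88.7%) listed 2 genes, 78 listed 3, 15 listed 4, and 2 listed 5. The remaining loci held 7, 8 and 30 genes. They lay on the plus strand in 450 cases and on the minus strand in 421.

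They were also long. The median span was 11551 bp (quartiles 5772 and 20072), against 3884 bp (2216 and 6210) for loci with 1 gene, and 29 joined loci exceeded 50 kb against 7 of the far more numerous loci with 1 gene. Per gene listed, the joined loci spanned a median of 5470 bp (quartiles 2844 and 9580). The shortest, with 2 genes on unplaced sequence (numbered 0 in the table, 19614385 to 19615060), measured 676 bp. The longest, with 30 genes on chromosome 1 (89071526 to 89315619), measured 244094 bp. Coordinates throughout are those of the deposited table, of a genome build not given in the sources used here.

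**Figure D1:**
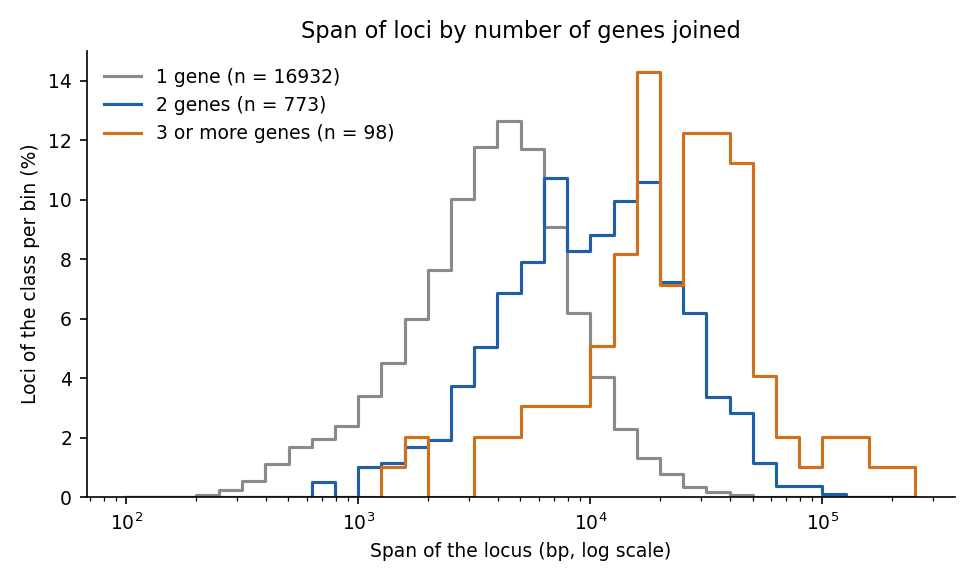
Span of loci in bp (log axis) against the percent of each class per bin, for loci with 1 gene, 2 genes, and 3 or more genes. Loci with 1 gene peak near their median of 3884 bp, and the curves move to longer spans as more genes are joined.

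Gene spacing can be read from the identifiers, which number the genes of a chromosome in steps of 10. Among 827 joined loci with at least 2 such identifiers there were 970 neighbouring pairs, of which 830 (85.6%) were consecutive, 93 (9.59%) skipped 1 number, and 22 skipped 2. A gene listed by symbol has no number here, so it counts as skipped even where it belongs to the same locus. All genes were consecutive at 702 of the 822 joined loci that list identifiers only. The widest step, 102 numbers, lay inside a single locus on chromosome 9 (64491479 to 64539947) that also lists PIIF, a proteinase inhibitor gene of the wound response. Leaving that locus out, 247 identifiers were skipped, which divided into 166 that do not occur in the table as identifiers, 44 that belong to a separate locus inside the span on the same strand, and 37 inside the span on the opposite strand. Not 1 of the skipped genes that are listed by identifier lay outside the span. Among the 822 joined loci that list identifiers only, order within an entry was neither ascending nor descending at 4. Loci with a symbol were not checked for order.

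The identifiers differed from those of single-gene loci in a feature the choice did not use. The lower version number, 1 after the point, was carried by 743 of 1832 identifiers in joined loci (40.6%) and by 4965 of 16026 in loci with 1 gene (31.0%). All identifiers in joined loci of chromosomes 11 and 12 carried it, and these chromosomes had the highest shares of joined loci. The part of chromosome in this difference was not tested. The nearest other gene locus on the same strand was a median of 9202 bp away, against 6979 bp for loci with 1 gene. Within 50 kb there were a median of 3 same-strand gene loci, against 4. On the opposite strand the median gap was 9109 bp against 6729 bp, and the counts within 50 kb were again 3 and 4. Joining takes near same-strand neighbours into a locus, and its part in these values was not tested. Another gene locus overlapped on the opposite strand at 51 joined loci (5.86%) and at 670 single-gene loci (3.96%). Same-strand overlap was found at 38 joined loci (4.36%) and at 79 single-gene loci (0.467%). Joined loci were longer, which leaves more room for overlap, and the part of span in these shares was not tested.

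Every chromosome carried joined loci, at shares between 3.74% of gene loci on chromosome 9 and 6.21% on chromosome 11. Chromosome 12 (6.07%) and chromosome 1 (5.73%) came next below chromosome 11, and chromosomes 10 (4.02%) and 3 (4.16%) next above chromosome 9. On chromosome 9, 35 were on the plus and 13 on the minus strand.

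A dense run of joined loci carried plastid gene symbols. Between 1844954 and 1894905 on chromosome 1, 7 of 13 gene loci (53.8%) were joined, and 12 of the 13 were listed under symbols of plastid genes. Of the 10 joined loci in the whole table that name 2 or more genes by symbol, 6 lay in this run of 49952 bp. Whether the reads came from the plastid genome or from a nuclear copy of it cannot be told apart in this table. In a RefSeq gene table (assembly SLM_r2.1) NDHJ is next to NDHK and PSBH is next to PETB among the protein genes of the plastid. PSBJ and PSBF there have 1 gene between them.

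The photosynthesis genes of the run gave the highest value among its joined loci. PSBJ and PSBF, which encode small subunits of photosystem II, shared a locus (1861279 to 1862342, minus strand) at 59.3 FPKM in wild type against 23.0 in the overexpressor. The difference on the log2(FPKM + 1) scale, overexpressor minus wild type, was −1.33, or 2.51-fold lower. All differences and folds below are on this scale and in this direction, which understates the change of low loci, and values given as a pair have wild type first. PSBH, another photosystem II subunit, with PETB, a subunit of the cytochrome complex between the photosystems, read 2.76 and 2.53 FPKM. Among genes of the plastid NDH complex, which passes electrons around photosystem I, NDHJ with NDHK read 3.03 and 2.76 FPKM. NDHB1 with RPS7-A, a ribosomal protein gene, read 9.51 FPKM in wild type against 2.08 in the overexpressor, 3.42-fold lower.

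Other joined genes of the run were low in both libraries. RPS3, RPS19 and RPL2-A, of the plastid ribosome, read 3.80 and 6.78 FPKM. YCF2-A with 1 further gene was listed at 0 in CK-1 and at 2.93 FPKM in OV-5-1, for which no fold is given, since an exact 0 can be a failed estimate.

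These values had no common direction. Of the 7 joined loci, 2 were at least 2-fold lower, and only the one listed at 0 in wild type lay past 2-fold higher. The 5 single-gene loci of the same run ranged from 0.846 to 254 FPKM in wild type and from 2.66 to 271 in the overexpressor. Among them ATPB, a subunit of the plastid ATP synthase, read 35.6 and 6.82 FPKM, PSAJ of photosystem I 80.2 and 11.8, and RBCL, the large subunit of Rubisco, 20.1 and 21.6. RPS18 and CLPP, a protease subunit, read 254 and 271 FPKM and 0.846 and 2.66 FPKM. Directions here are at the deposited scale. With both libraries scaled to equal sums over the table, loci without a gene included, PSBJ with PSBF (1.54) and NDHB1 with RPS7-A (0.67) were higher in the overexpressor. Scaled to equal upper quartiles of the gene loci, both stayed lower (−1.05 and −1.57). They were also lower when scaled without the 100 most abundant gene loci (−0.68 and −1.29).

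**Figure D2:**
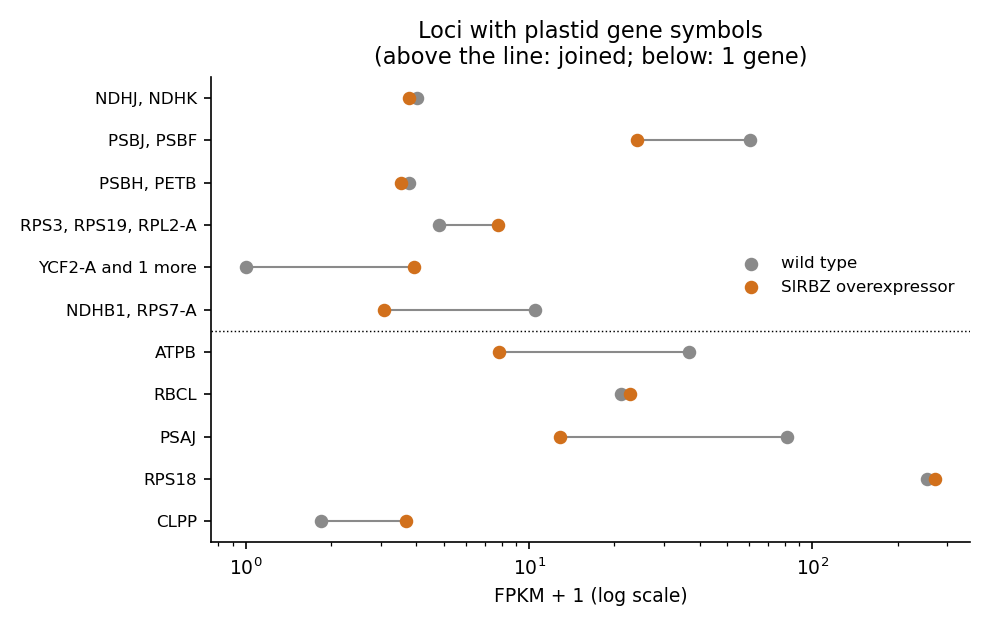
Loci of the run with plastid gene symbols, with FPKM + 1 on a log axis, grey for wild type and orange for the overexpressor. Of the joined loci 6 are drawn above the dotted line, with the 5 single-gene loci below it, and PSBJ with PSBF is the highest joined locus at 59.3 and 23.0 FPKM.

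Over all joined loci, levels were close to those of loci with 1 gene. The median was 13.5 FPKM in wild type (quartiles 5.28 and 35.7) and 12.5 in the overexpressor (5.67 and 29.9). Loci with 1 gene had medians of 15.7 and 15.5 FPKM. With the mean of both libraries required to reach 1 FPKM, 863 of the 871 joined loci and 16768 of the 16932 single-gene loci were kept for comparison, so 0.918% and 0.969% fell below. In wild type 9 joined loci (1.03%) and 296 single-gene loci (1.75%) were listed at 0, and no joined locus was at 0 in the overexpressor. The steps between low values gave 14.3 fragments per FPKM at 1 kb of effective length in the overexpressor and 7.47 in wild type, so the overexpressor was the deeper library by a factor of 1.91. For a locus of 1 kb effective length at 10 FPKM, 95% Poisson limits were 8.46 and 11.8 FPKM (overexpressor), or 7.90 and 12.6 (wild type), covering counting error only.

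Joined loci differed between the genotypes about as often as other gene loci. At least 2-fold higher in the overexpressor were 87 of 863 joined loci (10.1%), where 11.6% of all 17631 gene loci that passed the same limit were higher. At least 2-fold lower were 133 (15.4%), where 15.0% of all gene loci were lower. In 863 loci with 1 gene, each matched to a joined locus on mean FPKM and used once, 95 (11.01%) were higher and 133 (15.4%) lower. In either direction together these were 25.5% of joined loci, 26.7% of all loci with 1 gene and 26.6% of all gene loci, so the shares of joined loci were near the background of the table.

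The size of the differences was compared by medians and quartiles. Joined loci had a median difference of −0.06, with quartiles of −0.53 and 0.46, and the matched loci a median of −0.04, with quartiles of −0.63 and 0.46. The interquartile width was 0.99 for joined and 1.08 for matched loci. Matched on mean FPKM and span together, 863 single-gene loci gave 77 higher and 96 lower, fewer than the 87 and 133 of joined loci. The median difference of these span-matched loci was 0.01. Weighting all 16768 single-gene loci over 20 bins of mean FPKM gave 109 higher and 121 lower.

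The split into higher and lower followed the scaling of the libraries. With equal upper quartiles of the gene loci, which moved the median of all gene loci from −0.05 to 0.22, 138 joined loci were higher and 90 lower. Scaled without the 100 most abundant gene loci (median 0.58), 238 were higher and 54 lower. At equal sums of the whole table, which multiplied the overexpressor by 7.59 (median 2.77), the counts were 825 and 3. That sum includes the 4512 loci without a gene, and the sums of the gene loci alone differed far less. The matched loci moved alongside, to 158 and 68, 260 and 47, and 831 and 4. The difference between the median of the joined and that of the matched loci lay between −0.05 and −0.01 under these scalings. Counts and directions that follow are at the deposited scale, and of the 40 loci named by rule 5 changed sign with equal upper quartiles, 7 without the 100 most abundant gene loci and 15 at equal sums, 6 of these last being loci past 2-fold at the deposited scale.

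**Figure D3:**
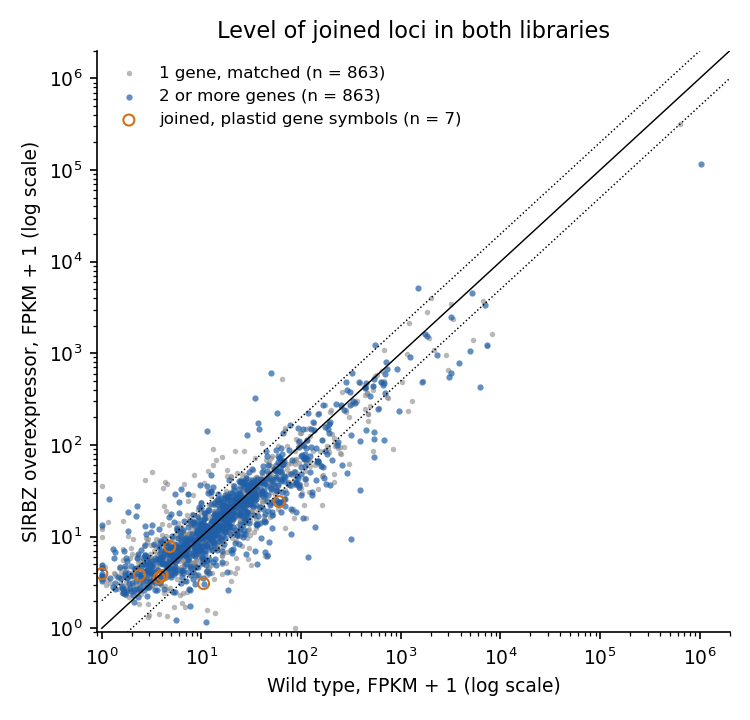
FPKM + 1 in wild type against the overexpressor, both axes log, for 863 joined loci (blue), 863 matched single-gene loci (grey) and the 7 joined loci with plastid gene symbols (orange rings). The solid line marks equal values and the dotted lines 2-fold differences, and both classes spread around the solid line, with 1 joined locus at 1025870 FPKM in wild type.

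Loci of 2 genes had a median mean level of 14.7 FPKM and a span of 10334 bp, those of 3 genes 11.5 FPKM and 21309 bp, and those of 4 or more 10.9 FPKM and 41746 bp. Of 765 loci with 2 genes, 76 were higher and 119 lower. Of 78 with 3 genes, 9 were higher and 12 lower, and their median difference was −0.05 against −0.02 in the matched loci. Of 20 with 4 or more genes, 2 were higher and 2 lower, and their median was 0.25. The 20 loci matched to them had a median of −0.43, with 1 higher and 5 lower. For comparison, the median was −0.05 in all gene loci compared and 0.03 in the 6546 single-gene loci between 5 and 20 FPKM. Across the 863 joined loci the Spearman correlation of gene number with the difference was 0.02 and with mean FPKM −0.04, given as a description over loci of the same libraries.

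**Figure D4:**
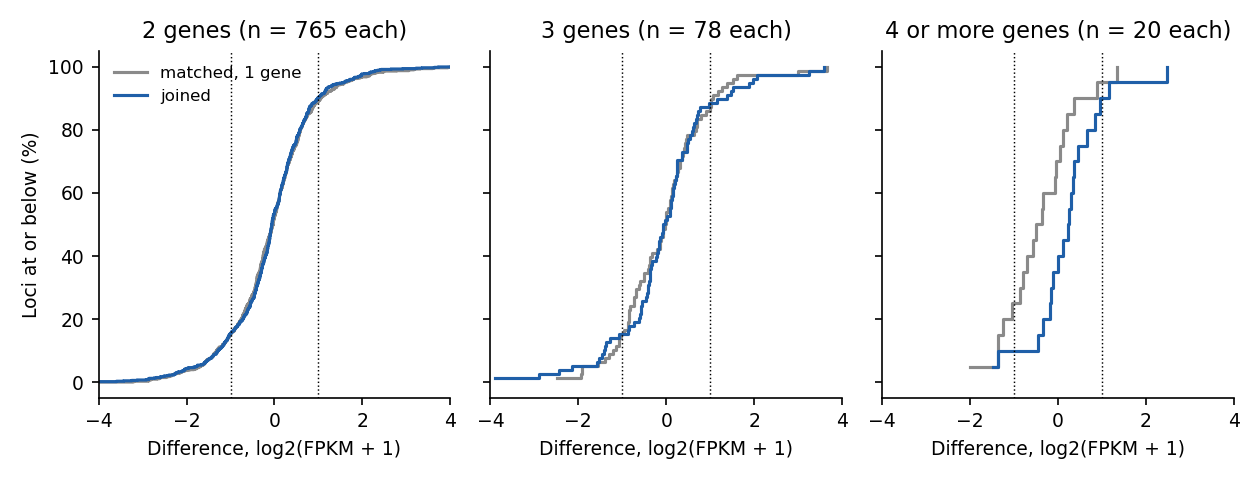
Cumulative percent of loci against the difference between overexpressor and wild type in log2(FPKM + 1), shown from −4 to 4, for joined loci (blue) and their matched single-gene loci (grey), by number of genes joined. The curves nearly coincide for 2 and 3 genes, while for 4 or more genes (20 loci each) the joined loci lie to the right. Medians of joined and matched loci there are 0.25 and −0.43, beside −0.05 for all gene loci.

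Short joined loci were the ones most often higher. Among the 216 shortest (676 to 5773 bp) 37 were at least 2-fold higher (17.1%) and 36 lower, whereas the next 216 (to 11584 bp), 215 (to 20095 bp) and 216 (to 244094 bp) had 15, 22 and 13 higher loci (6.94%, 10.2% and 6.02%) and 34, 34 and 29 lower ones. The shortest group also held the lowest levels, with a median mean of 9.93 FPKM against 15.6, 14.8 and 15.4, and 6 of the 9 loci listed at 0 in wild type. The part of level in this was not tested.

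Level went with direction among joined loci much as among their matched loci. Between 1 and 5 FPKM 38 of 175 joined loci were higher (21.7%) and 10 lower, and the matched loci gave 39 and 11. Between 20 and 100 FPKM 12 of 243 were higher and 53 lower (21.8%), beside 22 and 42 in the matched loci. At 1000 FPKM or more 10 of 16 joined loci were lower (62.5%) and 1 was higher, with 8 and 1 in the matched loci. The Spearman correlation of mean FPKM with the difference was −0.36 in joined and −0.33 in matched loci (863 loci each), and the mean contains both values that make up the difference.

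**Figure D5:**
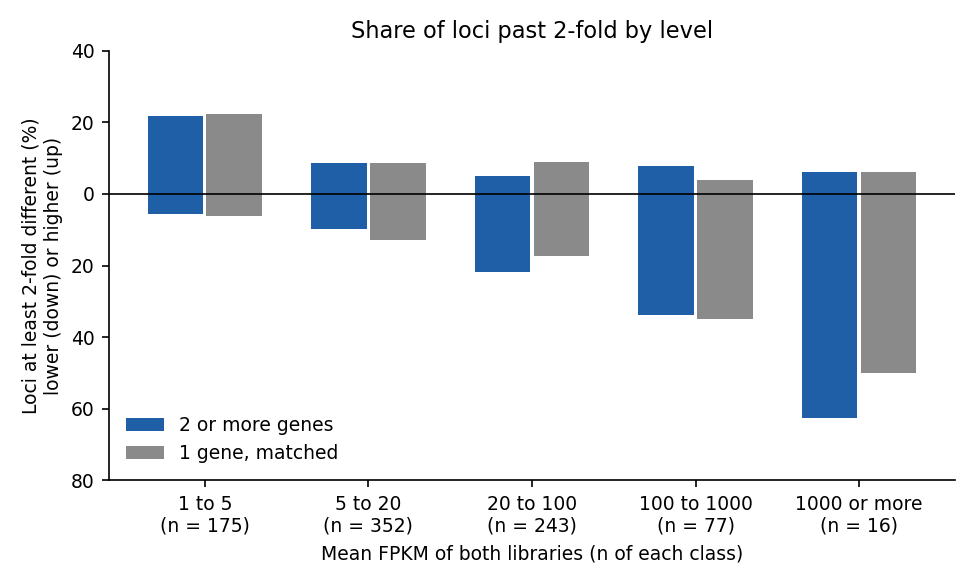
Percent of loci at least 2-fold higher (bars up) or lower (bars down) in the overexpressor by mean FPKM, for joined loci (blue) and matched single-gene loci (grey). Higher loci prevail at 1 to 5 FPKM (21.7% of joined) and lower loci at 1000 FPKM or more (62.5% of joined), in both classes.

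By chromosome, the share of joined loci at least 2-fold higher ran from 4.17% on chromosome 11 to 13.8% on chromosome 8, and the share lower from 10.1% on chromosome 3 to 23.4% on chromosome 10 (11 of 47). On the unplaced sequence 2 of 5 were higher. Over all loci with 1 gene the shares by numbered chromosome ran from 9.31% to 13.7% higher and from 13.05% to 17.0% lower. Chromosome medians of the difference lay between −0.17 on chromosome 4 and 0.16 on chromosome 8, the unplaced sequence aside. The loci matched to the joined loci of each chromosome, which can lie on any chromosome, had medians between −0.30 and 0.13. The shares of joined loci ranged more widely than those of single-gene loci, over fewer loci per chromosome.

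The most abundant gene locus of the whole table was a joined one. Solyc06g082940.2 with Solyc06g082950.2 (chromosome 6, 44850597 to 44854885) was at 1025870 FPKM in wild type against 117686 in the overexpressor, 8.72-fold lower. Its difference was −2.83 with equal upper quartiles, −2.46 without the 100 most abundant gene loci and −0.20 at equal sums. The files and the reference table do not pair these identifiers with names. At that wild-type value the effective length behind the estimate can be no more than 975 bp of the 4289 bp span, even if it had taken every fragment. Its share of all FPKM at gene loci was 21.0% in wild type, against 5.04% in the overexpressor, and it made up 91.6% and 67.0% of the FPKM of joined loci. Without it, joined loci made up 2.44% (wild type) and 2.62% (overexpressor) of that sum, while being 4.89% of the gene loci.

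Below this locus, 15 further joined loci had a mean of at least 1000 FPKM. GS shared a locus with 1 unnamed gene (chromosome 1, 72039626 to 72046798) at 3870 FPKM in wild type against 791 in the overexpressor, 4.89-fold lower. TCTP, encoding the translationally controlled tumour protein found throughout eukaryotes, read 1731 and 1629 FPKM at a locus with 1 other gene. A locus of 3 unnamed genes on chromosome 12 (42577392 to 42594891) read 6285 and 423 FPKM, 14.8-fold lower. Its difference was −3.60 with equal upper quartiles, −3.23 without the 100 most abundant gene loci and −0.97 at equal sums. At least 2-fold higher was a single pair on chromosome 4 at 1480 FPKM in wild type against 5157 in the overexpressor, 3.48-fold higher.

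The lowest and the highest difference of the joined loci belonged to pairs without a symbol. Solyc10g083370.1 with Solyc10g083380.1 (chromosome 10, 62531020 to 62535719) was at 318 FPKM in wild type against 8.52 in the overexpressor, a difference of −5.07. A pair on chromosome 7 (51866506 to 51869368) read 116 and 5.04 FPKM, and a pair on chromosome 6 (40576965 to 40578756) 389 and 31.3. The highest difference, 4.45, was that of Solyc07g005040.2 with Solyc07g005050.2 (chromosome 7, 90358 to 103579), at 0.178 and 24.8 FPKM. Solyc09g064930.2 with Solyc09g064940.2 (chromosome 9, 58080451 to 58088686) read 10.3 and 140 FPKM. A locus of 3 genes on chromosome 4 (58000263 to 58032356) was at 49.2 FPKM in wild type against 604 in the overexpressor, 12.1-fold higher, and a pair on the same chromosome (60559327 to 60564674) 33.8 and 323.5.

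Symbols stood at 49 joined loci, 42 of them outside the run of plastid symbols. Of these 42, 3 were at least 2-fold higher and 5 lower, and the median difference was −0.11. The 906 single-gene loci with a symbol, with no limit on level, gave 138 higher (15.2%) and 172 lower (19.0%), against 7.14% and 11.9% of the 42. Loci with a symbol outside the plastid run are described by role below, and each value is that of the whole locus, partner genes included. They include GS, TCTP, CEVI34, CIPK14, RPD1, LTC, BI-GST/GPX and several others that were chosen after their values were seen. The groups counted below are small, and 25.5% of all joined loci compared passed 2-fold in either direction.

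The pigment and photosynthesis genes among them, 1 locus each, did not pass 2-fold. CAB6A, a chlorophyll-binding antenna protein of photosystem I, shared a locus with Solyc05g056060.2 (chromosome 5, 64601047 to 64608378) at 77.8 FPKM in wild type against 47.4 in the overexpressor. For comparison, 19 loci with leaf mesophyll symbols (RBCS, CAB, PSBO and PSBS, this one included) had medians of 5849 and 996 FPKM. The median of 3 guard cell and epidermis loci (LTP and TSW12 symbols) moved the other way, from 156 to 651 FPKM. The highest values of these 3 were close, at 5933 and 6433 FPKM. The part of both lists in the differences of joined loci was not tested. CCD1B, a carotenoid cleavage dioxygenase gene, shared a locus with 1 other gene (chromosome 1, 73957796 to 73970774) at 713 and 796 FPKM. No joined locus carried a symbol of the gibberellin or heat shock lists. Symbols of other organs were few in the table, with 1 fruit locus at 38.6 and 21.4 FPKM, 3 ammonium transporter loci at 11.6 to 98.4 FPKM in wild type and 2.004 to 31.6 in the overexpressor, and 1 pollen-related locus at 20.8 and 27.7.

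Of 3 loci with hormone and polyamine symbols, 1 passed 2-fold. LE-ACS6 and ACS6, symbols of an ACC synthase, which makes the precursor of ethylene, were listed together (chromosome 8, 2580112 to 2583524) at 7.19 FPKM in wild type against 2.46 in the overexpressor, 2.37-fold lower. In the RefSeq table LE-ACS6 is a synonym of the gene ACS6, and of ACS8 on another chromosome, so this entry may list 1 gene under both names. ARF2, an auxin response factor gene joined to 1 unnamed gene (chromosome 3, 61268685 to 61276228), read 113 and 68.5 FPKM. SAMDC, S-adenosylmethionine decarboxylase of polyamine synthesis, read 67.7 and 43.4 FPKM at a locus with another gene.

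Of 5 loci with defence and stress symbols, 2 passed 2-fold, 1 in each direction, and both were chosen after their values were seen. PAL5 and PAL, phenylalanine ammonia-lyase, which opens phenylpropanoid synthesis, were listed together (chromosome 9, 1429132 to 1440492) at 61.4 and 92.7 FPKM, and RefSeq again has PAL as a synonym of PAL5. The locus with PIIF read 115 and 224 FPKM, a difference of 0.96, and 3 other gene loci lay inside its span, all on its own strand. PR1B1, a pathogenesis-related protein gene, shared a locus on the unplaced sequence (18119491 to 18121692) at 63.0 and 79.6 FPKM. CEVI34, which RefSeq gives as a synonym of the lipoxygenase TomloxE, shared a locus with 2 other genes at 6.71 FPKM in wild type against 0.754 in the overexpressor, a difference of −2.14. BI-GST/GPX, a glutathione transferase gene with peroxidase activity, shared a locus with 1 other gene that read 0.827 and 3.03 FPKM.

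Of the immune receptor and kinase loci described next, 1 passed 2-fold. The resistance gene BS4 read 26.8 and 18.0 FPKM, I2 2.28 and 2.75, and HCR9-NL0D, a relative of the Cf-9 receptors, 32.2 and 25.3. BTI9, a LysM receptor kinase listed as LYK1 in RefSeq, read 12.4 and 16.0 FPKM, and PTI1, a kinase that interacts with Pto, 39.8 and 38.4. The locus of CIPK14, a kinase regulated by calcium sensors, and 1 unnamed gene was 2.23-fold lower at 36.3 and 15.7 FPKM. SLGLR2.1 and SLGLR2.4, glutamate receptor-like channels, shared a locus with 2 further genes (chromosome 6, 36287123 to 36314938) at 11.96 and 11.1 FPKM, with SLGLR2.3 as a separate locus inside its span.

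The locus of the cell wall gene XTH3 was higher. XTH3, a xyloglucan endotransglucosylase/hydrolase gene, whose enzymes remodel the wall, shared a locus with Solyc03g093120.2 (chromosome 3, 47736430 to 47753434) at 0.820 FPKM in wild type against 17.7 in the overexpressor, a difference of 3.36. The locus of LTC (65.5 and 133 FPKM) was at 1.014 just past 2-fold, and that of RPD1 (15.2 and 5.99) at −1.22. GGH1 and GGH3, gamma-glutamyl hydrolases of folate metabolism, which are neighbours in RefSeq as well, shared a locus (chromosome 7, 62274440 to 62282682) at 16.5 and 12.5 FPKM. SAHH, S-adenosylhomocysteine hydrolase of the methyl cycle, read 727 and 674 FPKM, PAD1 44.8 and 74.9, and OAT 286 and 394.

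The RefSeq table held 50 of the 63 symbols of joined loci. Of these, 35 were on the chromosome that the table gives and 13 had a plastid entry. The other 2 were found elsewhere only, namely PR1B1, on chromosome 9 in RefSeq, and SAMDC, on chromosome 5 in RefSeq against chromosome 1 in the table. Identifiers had no counterpart in that reference, so the genes given by identifier remain without a role here.

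Of the 3 loci that joined the most genes, 1 passed 2-fold. The locus of 30 genes, which includes SN2, read 6.40 FPKM in wild type against 4.88 in the overexpressor, and 15 other gene loci overlapped it, all on the opposite strand and up to 5133 FPKM in wild type. The locus of 7 genes (chromosome 1, 67933272 to 68064343) read 377 and 487 FPKM. The locus of 8 genes (chromosome 1, 73981707 to 74164827), next to that of CCD1B, read 93.3 FPKM in wild type against 35.7 in the overexpressor, 2.57-fold lower, and 5 other gene loci lay inside it. A locus of 5 genes on chromosome 8 (17243266 to 17292785) read 5.56 and 10.7 FPKM. Of the longest loci, 1 on chromosome 11 (37698832 to 37828704, 3 genes) read 23.1 and 24.8 FPKM, and a pair on chromosome 1 (76486680 to 76609260) read 17.2 and 15.4 across 122581 bp, with 7 other gene loci inside it.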

How the data were processed

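Expression was measured by RNA-seq in 1 library each of wild-type and SlRBZ overexpressing leaf. Per the file headers, the authors deposited FPKM per locus and library with position, strand and reference genes. TopHat appears in the submitters' processing notes without version or role. Assembler, annotation and build are likewise not given in the sources used here. By their titles each of the value columns belongs to a library, with 0 left over.

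Differences are overexpressor minus wild type in log2(FPKM + 1), taken where the mean reached 1 FPKM, and called at 2-fold. FPKM is no count, and with 1 library per genotype no test was run. Each joined locus, from the highest mean down, took the unused single-gene locus nearest in mean FPKM. Scaling totals were fitted to whole-fragment steps among gene-free loci of at least 300 bp (84.3% of 1799 low values whole within 0.05 in the overexpressor, 81.3% of 2063 in wild type, offset 199 bp). The scripts were tested on simulated data.

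Members and lists were chosen with earlier results of these data known. Loci were named by rule (the 8 largest differences each way among loci above 0 in both libraries, the 5 with most genes, longest span or highest mean, those with 2 or more symbols, or a listed symbol), and where identifiers lack a name few are printed. Alternatives were pseudocount, filter, scaling, matching, fold, and subsets of joined loci. Python 3.11.15, numpy 2.4.6, pandas 2.3.3, scipy 1.17.1 and matplotlib 3.10.9 were used. The values of 1 joined locus in the run of plastid symbols are not reported here.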

Additional observations from a re-analysis of the deposited data

How the results depend on the processing

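No paired analysis was possible because each genotype has 1 library. The difference of their medians (−0.02) passed 0.1 only for loci of 3 or more genes (0.13). Counts follow as higher and lower, joined then matched, beside 87 and 133, and 95 and 133. A filter of 5 FPKM, which left 688 joined and 688 matched loci, gave 49 and 123, and 56 and 122, with a matched median of −0.17. Equal upper quartiles gave 138 and 90, and 158 and 68 (medians 0.21 and 0.27). Scaling without the 100 most abundant gene loci gave 238 and 54, and 260 and 47 (0.56 and 0.59). Equal sums gave 825 and 3, and 831 and 4 (2.76 and 2.77). Loci of 3 or more genes, a smaller set, gave 11 and 14 (median difference 0.047), and 10 and 17. A limit of 1.5-fold gave 173 and 198, and 175 and 225, and a limit of 3-fold 44 and 53, and 42 and 51. Without the 216 shortest joined loci, an alternative chosen after seeing the data, the counts were 50 and 97, and 70 and 108. These are of 647 loci each in place of 863, so part of the fall is that of the set. Only the joined count of higher loci moved past 1.5 times. Pseudocounts, no filter, zeros left out, consecutive identifiers, placed chromosomes and, added later, leaving out the plastid-named run kept each count within 1.5 times.

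The naming rule takes in the 8 largest differences each way, so its count past 2-fold is partly fixed by the choice. Of 40 loci named by rule, 22 were past 2-fold. At equal sums 11 of these kept the call, 5 lost it with the same sign, among them the most abundant joined locus (−0.20) and that of 3 genes on chromosome 12 (−0.97), and 6 changed sign: PSBJ with PSBF (1.54), NDHB1 with RPS7-A (0.67), LE-ACS6 with ACS6 (1.26), the locus of 8 genes on chromosome 1 (1.53), and abundant pairs on chromosomes 11 (0.33) and 4 (1.87). Of the loci within 2-fold 9 others changed sign, ARF2 (2.19) and CAB6A (2.20) included. With equal upper quartiles, 1 of the 22 lost 2-fold. Without the 100 most abundant loci, 4 lost 2-fold, PSBJ with PSBF (−0.68) and LE-ACS6 with ACS6 (−0.74) among them. With 1 library per genotype, replicate error is unknown.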
